A study of Mus musculus with 3 samples.

Results

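The genes described here are 9 core members of the Hedgehog pathway, out of 19165 genes in the deposited table: the ligand Shh, the receptor Ptch1, the decoy receptor Hhip, the co-receptors Boc and Gas1, the signal transducer Smo and the transcription factors Gli1, Gli2 and Gli3. They were listed by name as a pathway, with earlier results of these data known, and all 9 were in the table. Their RNA was measured in single cells of mouse back skin at the embryonic stages E13.5 and E16.5 and on the day of birth (P0). Each stage was 1 droplet library from the pooled skin of male C57BL/6 mice with no transgene or treatment named, so animals cannot be told apart within a library and no difference below has a replicate check. E13.5 and E16.5 skin was dissociated with trypsin and P0 skin with collagenase IV, and stage, library and (for P0) enzyme therefore cannot be told apart.

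Hedgehog signalling starts with a secreted, lipid-modified ligand. In its absence Patched 1 holds Smoothened inactive at the primary cilium, and binding of the ligand releases Smoothened, which turns Gli2 and Gli3 toward activators and raises transcription of Gli1, Ptch1 and Hhip, the usual readouts of a responding cell. In skin, Shh is the classical signal of the hair placode and of the growing follicle epithelium, received by the follicle epithelium itself and by the dermal condensate, the cluster of fibroblasts that becomes the dermal papilla.

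The E13.5, E16.5 and P0 libraries held 5962, 5208 and 5065 cells, with 53334740, 66239195 and 46599806 unique molecular identifiers (UMIs, each counted once per captured RNA molecule) and medians of 7066.5, 11021 and 6797 UMIs per cell. Cells were clustered with the 9 members and the other listed pathway genes left out, and clusters were named from fixed marker lists that hold none of them. Dermal-like cells numbered 1926, 2610 and 2274 at the 3 stages in order, and epithelial-like cells 360, 877 and 1289. Col1a1, a fibroblast collagen, stood at 1850, 7989 and 12268 CPM (UMIs of the gene for every 1000000 UMIs counted in the class) in dermal-like cells against 558, 508 and 194 in epithelial-like cells. Krt14, the basal keratin, stood at 738, 4655 and 3525 CPM in epithelial-like cells against 9.86, 144 and 143 in dermal-like cells. The summed dermal markers in epithelial-like cells amounted to 24.0% of their level in dermal-like cells in the E13.5 library, falling to 7.73% and 2.81% in the later libraries, and the part this plays in the E13.5 comparison was not tested. Condensate or papilla-like cells (437 at E16.5, 140 at P0), placode or matrix-like cells (132 and 246) and follicle sheath-like cells (88 and 492) were named at the later stages and none at E13.5. Sox18, a condensate marker, stood at 182 and 657 CPM in condensate or papilla-like cells against 28.6 and 64.3 in all dermal-like cells at E16.5 and P0. Of the sheath markers, Sox9 stood at 239 and 339 in sheath-like cells against 47.7 and 233 in all epithelial-like cells, and Lhx2 at 343 and 533 against 52.7 and 370, though at P0 Lhx2 was higher still, at 742, in placode or matrix-like cells. In the placode or matrix-like class some markers stood above all epithelial-like cells at both stages, the placode marker Bmp2 at 330 and 195 CPM (against 90.6 and 49.99) and the matrix marker Msx2 at 14.96 and 51.2 (against 6.62 and 26.99), and others differed between the stages. The placode marker Dkk4 stood at 312 CPM in it at E16.5 and 9.61 at P0 (48.7 and 1.64 in all epithelial-like cells), while the matrix marker Hoxc13 stood at 4.28 at E16.5, under the 6.77 of all epithelial-like cells and the 33.3 of sheath-like cells, and at 86.5 against 43.0 at P0. In all, 407, 757 and 690 cells were left without a name. The libraries shared 44, 41 and 32 cell barcodes (E13.5 with E16.5, E13.5 with P0, E16.5 with P0).

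Because the 10x chemistry counts 3′ ends, a level is compared between classes and stages for 1 gene, never between genes. Bracketed values are exact 95% intervals (Poisson for a level, binomial for a share, conditional binomial for a ratio), which cover counting error only. A gene was called higher or lower when its summed level differed at least 2-fold and the pair of groups held at least 50 UMIs of it, and the share of all genes called in the same comparison is given as the background. With 1 library per stage no test was made and no p-value is given.

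Genomic positions follow GENCODE vM21 on the mm10 build, on which the reads were aligned. Shh lies at chr5:28456815-28467256, Ptch1 at chr13:63508328-63573598, Hhip at chr8:79965851-80058006, Boc at chr16:44485049-44558897, Gas1 at chr13:60174405-60177365, Gli1 at chr10:127329882-127341974 and Gli2 at chr1:118834132-119053619, all on the minus strand, and Smo at chr6:29735503-29761365 and Gli3 at chr13:15463235-15730026 on the plus strand. The values are sums over the whole gene.

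Ptch1 and Hhip are the receptors whose levels were higher in condensate or papilla-like cells at both later stages, and the 250 bases upstream of their RefSeq start sites are shown for that reason (RefSeq, GRCm38.p6, minus strand, 5′ to 3′). The Ptch1 window is chr13:63565736-63565985, upstream of a start inside the longest gene model above, and the Hhip window is chr8:80058009-80058258. Capitals mark each GGGCGG, the core of a GC box, on either strand.
Ptch1: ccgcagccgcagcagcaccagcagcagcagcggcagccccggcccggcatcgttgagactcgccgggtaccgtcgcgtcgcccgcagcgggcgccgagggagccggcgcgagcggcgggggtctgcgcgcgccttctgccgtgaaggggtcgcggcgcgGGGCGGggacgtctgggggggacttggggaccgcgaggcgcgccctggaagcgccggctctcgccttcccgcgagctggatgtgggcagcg
Hhip: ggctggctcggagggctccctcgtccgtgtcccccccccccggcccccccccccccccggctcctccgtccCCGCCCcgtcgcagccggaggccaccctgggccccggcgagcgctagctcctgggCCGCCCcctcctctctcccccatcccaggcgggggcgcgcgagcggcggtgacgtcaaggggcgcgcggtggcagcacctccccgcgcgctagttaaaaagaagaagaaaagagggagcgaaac
The Ptch1 window held 1 such match and the Hhip window 2. The GGGCGG letters were found in 5 of the 6 members that have an entry, against 32.7% of 32851 promoters of the same length. The consensus Gli site GACCACCCA, searched on both strands, was found in 0 of the 6 and in 0.225% of all promoters. No Gli site by these letters lies in the short windows, which says nothing of sites elsewhere.

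Shh, the ligand, was epithelial and was first found at E16.5. At E13.5, 0 Shh UMIs were found in the whole library, and 0 of 360 epithelial-like cells had one, which by a floor of 3 counts allows up to 0.888 CPM. In epithelial-like cells the level was 19.4 CPM at E16.5 (264 UMIs) and 53.2 at P0 (906 UMIs). The E16.5 level was at least 21.9-fold above the E13.5 floor, and P0 was 1.45 [1.25, 1.66] higher than E16.5 on the log2 scale. Placode or matrix-like cells, described below, were 132 of the 877 epithelial-like cells at E16.5 and 246 of the 1289 at P0. The part of this make-up in the difference was not tested. Dermal-like cells held 0.511 and 0.941 CPM at these stages, which is close to the 0.60 and 1.01 of endothelial-like cells, a class that should lack the ligand. At P0, Schwann-like cells (7 UMIs) and melanocyte-like cells (16 UMIs) held 11.7 [4.72, 24.2] and 10.3 [5.88, 16.7] CPM, above the endothelial-like interval of [0.21, 2.96]. The summed epithelial markers were 38.1% of the epithelial-like level in melanocyte-like cells, 8.18% in Schwann-like cells and 5.10% in endothelial-like cells, and the part of epithelial RNA in these Shh levels was not tested. Dermal-like cells were lower than epithelial-like cells by log2 values of -5.25 [-6.11, -4.50] at E16.5 and -5.82 [-6.70, -5.07] at P0.

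Within the epithelium, Shh was concentrated in few cells. Placode or matrix-like cells were 2.53% of the cells at E16.5 and 4.86% at P0, and they held 58.0% of the 312 Shh UMIs at E16.5 and 70.3% of the 1038 at P0. Their level was 96.7 CPM at E16.5 against 7.08 in other epithelial-like cells, a log2 ratio of 3.77 [3.39, 4.16]. At P0 it was 260 against 12.4, a log2 ratio of 4.39 [4.15, 4.64]. After thinning each cell to 3500 UMIs, 24.2% [17.2, 32.5] of placode or matrix-like cells had an Shh UMI at E16.5 and 58.9% [52.5, 65.2] at P0, compared with 44.7% and 77.6% before thinning. Endothelial-like cells, with median depths of 16540 and 9668 UMIs, gave 0.285% and 0.392% after thinning and 1.14% and 1.18% before it. Single cells reached 26 Shh UMIs at E16.5 and 18 at P0, and both were placode or matrix-like. The placode or matrix-like class was made of 2 sub-clusters at each stage, at 117 and 56.7 CPM at E16.5 and at 280 and 237 at P0. These sub-clusters are parts of 1 library per stage and not replicates, so they do not check the difference between stages.

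The follicle sheath, the outer epithelial layer of the follicle, went the other way for Shh. Sheath-like cells stood at 43.8 CPM at E16.5 (71 UMIs) and at 10.1 at P0 (63 UMIs), a log2 ratio of -2.11 [-2.62, -1.60]. With Gli2 (-1.54 [-1.97, -1.10], short of 2-fold in 2 of 11 alternatives), Shh made 2 of 8 members called lower at P0 in these cells and 0 higher, beside 13.6% and 5.38% of all genes (19.0% together). The share of sheath-like cells with an Shh UMI after thinning was 10.2% [4.78, 18.5] at E16.5 and 2.24% [1.12, 3.97] at P0. Sheath-like cells held 22.8% of the Shh UMIs at E16.5 and 6.07% at P0. At P0 the inner root sheath-like cells, which mould the growing hair and were not named at E16.5, were the next highest class at 76.5 [61.6, 94.1] CPM. Basal-like cells of the epidermis held 1.20 and 1.54 CPM at E16.5 and P0, no more than a few UMIs. The sheath-like class was 1 sub-cluster at E16.5 and 3 at P0, and a change in which sheath cells it holds was not tested. The matrix marker Hoxc13 was highest in this class among the follicle classes at E16.5 (33.3 CPM) and stood at 55.1 in it at P0, under the 86.5 of placode or matrix-like cells.

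**Figure D1:**
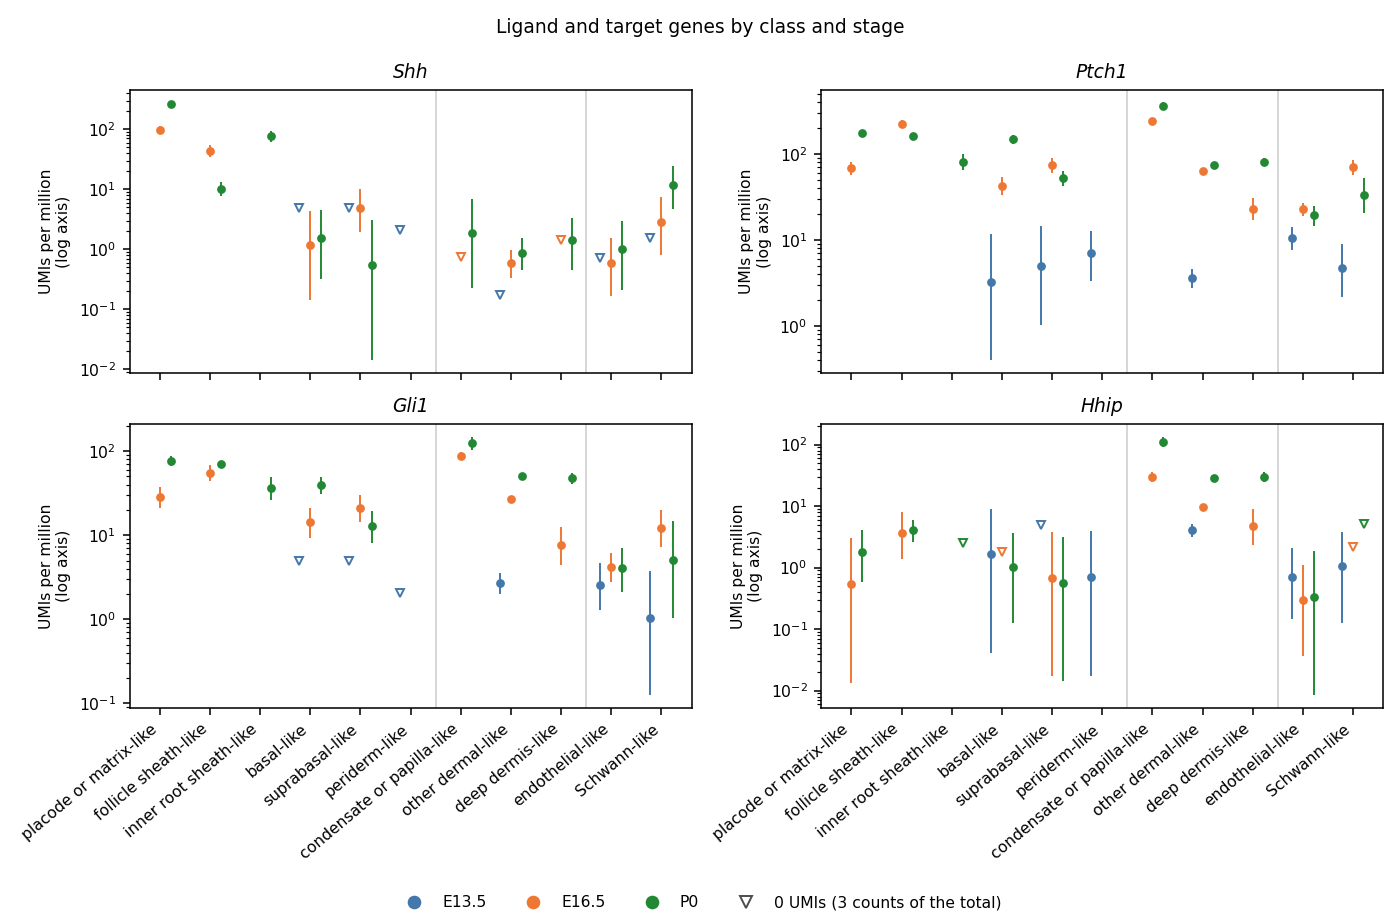
Levels of the ligand Shh and of the pathway targets Ptch1, Gli1 and Hhip in CPM (log axis), 1 panel a gene, by class and coloured by stage. Bars are exact 95% Poisson intervals, open triangles are classes with 0 UMIs drawn at 3 counts of their total, classes appear only at stages where they were named, and at E13.5 the other dermal-like point holds all dermal-like cells. Shh stands highest in placode or matrix-like cells, while Ptch1, Gli1 and Hhip at P0 stand highest in condensate or papilla-like cells.

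Ptch1, the receptor that is also a target of the pathway, was low at E13.5 and high in both compartments from E16.5. In dermal-like cells it stood at 3.61 CPM at E13.5 (63 UMIs), 86.8 at E16.5 and 94.3 at P0. Epithelial-like cells stood at 5.62 (19 UMIs), 92.0 and 148. The log2 difference of E16.5 from E13.5 was 4.59 [4.23, 4.97] in dermal-like and 4.03 [3.38, 4.77] in epithelial-like cells, and neither class was called between E16.5 and P0 (0.12 and 0.68). Endothelial-like cells stood at 10.4, 22.5 and 19.2 CPM, above both classes at E13.5. Their summed dermal and epithelial markers then stood at 32.5% and 2.65% of the dermal-like and epithelial-like levels. Whether their Ptch1 was free RNA or their own was not tested. No dermal or epithelial Ptch1 is read above the endothelial-like level at E13.5, so the size of the step from E13.5 to E16.5 is not read as exact.

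Gli1, the transcription factor that is itself a target and the standard reporter of Hedgehog response, followed the same course. It stood at 2.70, 35.4 and 56.4 CPM in dermal-like cells, and at 0, 23.5 and 57.1 in epithelial-like cells. From E13.5 to E16.5 the dermal log2 difference was 3.72 [3.30, 4.17], and the epithelial level was at least 26.4-fold above a floor of 3 counts. In epithelial-like cells P0 was called higher than E16.5 at 1.28 [1.10, 1.47], whereas the dermal difference of 0.67 was not called. Placode or matrix-like and sheath-like cells were 132 and 88 of the 877 epithelial-like cells at E16.5, and 246 and 492 of the 1289 at P0. Within them the Gli1 difference was 1.43 (called) and 0.34 (not called). The part of this change in make-up in the epithelial difference was not tested. Endothelial-like cells stayed at 2.59, 4.2 and 4.05 CPM, with an interval that overlapped that of dermal-like cells at E13.5 and lay far below both classes afterwards.

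Hhip, a membrane protein that binds the ligand and sequesters it, was mainly dermal. Its dermal-like levels were 4.01 (70 UMIs), 12.3 (361) and 34.6 (515) CPM across the stages. Epithelial-like cells held 0.592, 0.809 and 2.41, from 2, 11 and 41 UMIs. Dermal-like cells were higher by log2 values of 2.76 [0.85, 5.84], 3.92 [3.07, 4.94] and 3.85 [3.39, 4.34]. Hhip was the member called higher in dermal-like cells at every stage, and the dermal level was called higher at each stage than at the one before (1.61 [1.24, 2.00] and 1.49 [1.30, 1.69]).

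Gas1, a lipid-anchored co-receptor that presents the ligand to Patched, was abundant in the dermis from the start. Its dermal-like levels were 651, 631 and 759 CPM, with no call between stages, and 85.2%, 81.3% and 83.0% of dermal-like cells had a Gas1 UMI after thinning. Epithelial-like cells stood at 206, 316 and 187. At E13.5 the epithelial level was close to the 196 of endothelial-like cells, and Gas1 in endothelial-like cells was 30.1% of the dermal level where the dermal markers were 32.5%, and the part of free RNA in the epithelial Gas1 of E13.5 was not tested. The epithelial-like sub-clusters of E13.5 ran from 65.7 to 383 CPM of Gas1. The highest had 104 of the 360 cells, and its summed dermal markers stood at 63.8% of the dermal-like level. At E16.5 and P0 endothelial-like cells held 43.4 and 44.2 CPM, well under the epithelial levels. The log2 difference between dermal-like and epithelial-like cells was 1.66 [1.55, 1.77], 0.9996 [0.95, 1.05] and 2.02 [1.97, 2.08], and the E16.5 value lay just short of 2-fold.

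Boc, another co-receptor, of the immunoglobulin family, stood at 27.9, 35.0 and 30.9 CPM in dermal-like cells and at 11.8, 17.6 and 15.5 in epithelial-like cells. The log2 differences of 1.24 [0.77, 1.74], 0.99 [0.79, 1.20] and 0.99 [0.77, 1.22] had overlapping intervals, and the call at E13.5 alone rests on where the threshold falls. Over 13 alternatives the E13.5 difference ran from 0.91 to 1.82 and fell short of 2-fold in 1. The E16.5 and P0 differences passed 2-fold in 3 and 9 of 13. At E13.5 the epithelial-like sub-clusters ran from 2.21 to 26.6 CPM of Boc, the highest again in the 104 cells with dermal markers at 63.8%. Smo, the transducer of the signal, was broad: 89.3, 89.3 and 56.1 in dermal-like cells and 61.6, 46.3 and 57.7 in epithelial-like cells, with no call between them at any stage. Endothelial-like cells also held Smo, at 52.7, 37.1 and 16.52 CPM.

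The Gli factors that are present before the signal differed from Gli1. Gli2, the main activator, stood at 12.0, 26.8 and 11.3 CPM in dermal-like cells and at 5.33, 30.7 and 15.5 in epithelial-like cells, so both compartments were highest at E16.5. E16.5 was called higher than E13.5 in both, at 1.15 [0.93, 1.38] and 2.53 [1.85, 3.30], and P0 was called lower than E16.5 in dermal-like cells (-1.25 [-1.495, -1.004]) and narrowly missed the call in epithelial-like cells (-0.99 [-1.22, -0.76]). Both dermal calls fell short of 2-fold in 2 of 13 alternatives. Gli3, the main repressor in the absence of ligand, stood at 32.1, 28.9 and 21.3 in dermal-like cells and at 9.47, 17.9 and 12.8 in epithelial-like cells. It was called between the compartments at E13.5 alone, at 1.76 [1.24, 2.32], and at no stage step. At E13.5 endothelial-like cells held 19.1 CPM of Gli3 and 7.53 of Gli2, above the epithelial-like levels.

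**Figure D2:**
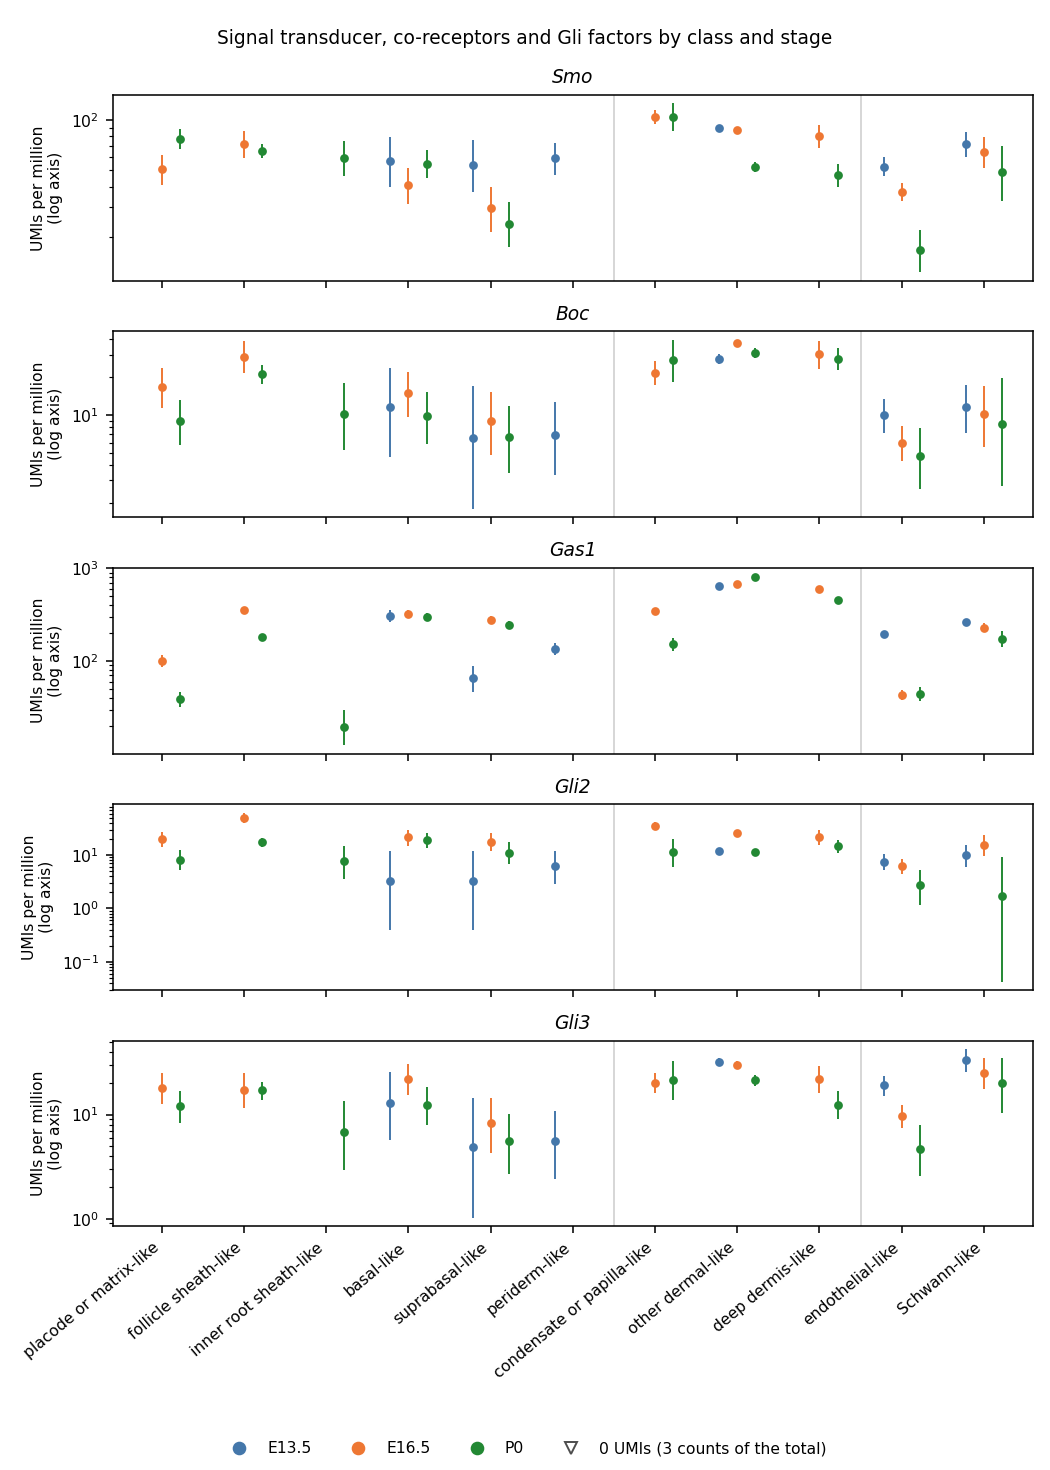
Levels of Smo, Boc, Gas1, Gli2 and Gli3 in CPM (log axis), 1 panel a gene, by class and coloured by stage, with exact 95% Poisson intervals and at E13.5 all dermal-like cells under other dermal-like. Gas1 stands at 101 and 38.8 CPM in placode or matrix-like cells at E16.5 and P0 and at 152 in condensate or papilla-like cells at P0, and Gli2 is lower at P0 than at E16.5 in placode or matrix-like, sheath-like and condensate or papilla-like cells.

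Over all named lineages (12, 10 and 8 in the order of the stages), epithelial-like cells ranked highest for Shh at E16.5 and P0 and dermal-like cells for Hhip, Boc and Gas1, each with an interval clear of the next class. For Ptch1 the highest 2 lineages at E16.5, epithelial-like and dermal-like, had overlapping intervals (92.0 [87.0, 97.3] and 86.8 [83.4, 90.2] CPM). At P0 the epithelial-like level of 148 [142, 154] overlapped that of melanocyte-like cells at 125 [108, 144], which held the epithelial markers given above. Gli1 was highest in dermal-like cells at E16.5, clear of epithelial-like cells, and the intervals of both overlapped at P0. At E13.5 the highest Gli1 was in cartilage-like cells, at 13.4 [8.18, 20.7], clear of the 2.70 [1.98, 3.58] of dermal-like cells. Erythroid-like cells of E13.5, which should lack a fibroblast co-receptor, held 479 CPM of Gas1, and their summed dermal markers stood at 71.5% of the dermal-like level.

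Counted over the members, dermal-like cells were higher for 5 of the 7 members with enough UMIs at E13.5, against a background of 13.9% higher and 8.66% lower among 11608 genes (22.5% in either direction). Those 5 were Hhip, Boc, Gas1, Gli2 and Gli3. Hhip, Boc, Gli2 and Gli3 held 2, 40, 18 and 32 UMIs in epithelial-like cells. They pass the minimum, which holds for the pair, only through the dermal-like cells. The count is therefore partly set by the filter and is not read as a result for the members. The Boc and Gli2 calls each fell short of 2-fold in 1 of 13 alternatives (at 0.91 and 0.75), and the count was lower with thinned cells. At E16.5, 1 of 9 was higher (Hhip) and 1 lower (Shh) against 19.5% higher and 11.6% lower of all genes (31.1% together), and at P0, 2 were higher (Hhip and Gas1) and 1 lower (Shh) against 18.2% and 15.5% (33.7% together). The counts at E16.5 and P0 are near the background, so at these stages the single members, not the number of them, carry the contrast between the compartments. Between E13.5 and E16.5, 4 of 8 members were higher at E16.5 in dermal-like cells (Ptch1, Gli1, Hhip and Gli2; background 6.94% higher and 8.5% lower, 15.4% together), and 4 of 8 in epithelial-like cells (Shh, Ptch1, Gli1 and Gli2; background 7.25% and 11.5%, 18.8% together), with 0 lower in either. The median log2 difference over the members was 0.74 in dermal-like cells and 1.73 in epithelial-like cells, beside -0.15 and -0.26 over all genes. In epithelial-like cells at E13.5, Shh, Ptch1, Gli1 and Gli2 held 0, 19, 0 and 18 UMIs. They pass the minimum, which holds for the pair, only through the E16.5 cells, as does Gli1 in dermal-like cells (47 UMIs at E13.5). The epithelial count and median are therefore partly set by the filter and are not read as a result for the members. From E16.5 to P0, Hhip was higher and Gli2 lower in dermal-like cells (backgrounds of 6.8% and 14.6%, 21.4% together), and Shh, Hhip and Gli1 were higher in epithelial-like cells (backgrounds of 6.91% higher and 11.4% lower, 18.3% together). The epithelial Hhip difference rests on 11 and 41 UMIs and fell short of 2-fold in 5 of 11 alternative settings, the lowest at 0.18.

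**Figure D3:**
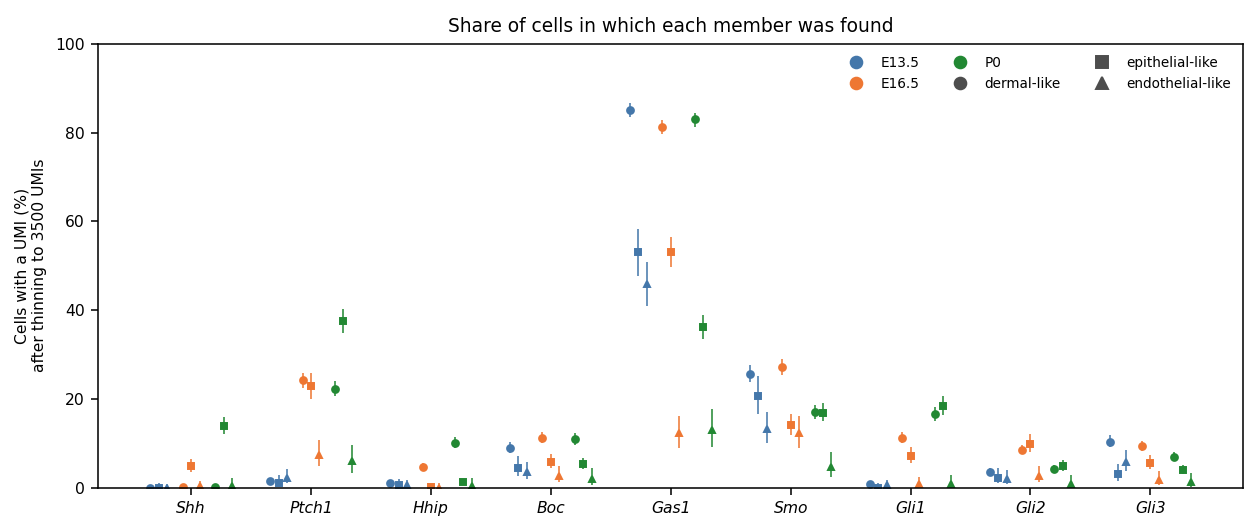
Share of dermal-like (circles), epithelial-like (squares) and endothelial-like cells (triangles) with at least 1 UMI of each member after thinning to 3500 UMIs per cell, in percent, coloured by stage, with exact 95% binomial intervals. Gas1 was found in 81.3% to 85.2% of dermal-like cells at every stage, whereas Ptch1 went from 1.40% of dermal-like cells at E13.5 to 24.2% at E16.5.

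In the dermal condensate and papilla the 3 target genes stood above the rest of the dermis. At E16.5, Ptch1 was at 242 CPM in condensate or papilla-like cells (958 UMIs) against 62.6 in other dermal-like cells, a log2 ratio of 1.95 [1.83, 2.07]. Gli1 was at 88.5 against 27.1 (1.71 [1.52, 1.89]) and Hhip at 29.8 against 9.56 (1.64 [1.31, 1.96], and 0.78 when markers were judged against the median of the clusters). At P0, Ptch1 was at 357 against 74.1 (2.27 [2.09, 2.44]), Gli1 at 125 against 51.2 (1.28 [1.005, 1.55]) and Hhip at 111 against 28.7 (1.96 [1.65, 2.26]). After thinning, 52.6% [47.8, 57.4] of condensate or papilla-like cells at E16.5 and 62.9% [54.3, 70.9] at P0 had a Ptch1 UMI, compared with 18.5% and 19.6% of other dermal-like cells and 7.41% and 5.88% of endothelial-like cells. These 3 were the members called higher at E16.5 (3 of 8, with 7.1% of all genes higher, 8.22% lower and 15.3% in either direction), and with Smo they made 4 of 8 at P0 (17.0% higher and 26.4% in either direction). Smo at P0 was at 105 against 52.3, a log2 ratio of 1.002 [0.70, 1.29] that sits at the threshold and fell short of it in 6 of 8 alternative settings. From E16.5 to P0, 3 of 8 members were called in condensate or papilla-like cells beside 18.7% of all genes (8.64% higher, 10.1% lower): Hhip was higher (1.90 [1.52, 2.29], with 86 of the 118 P0 UMIs from 43 of the 140 cells) and Gas1 (-1.20 [-1.44, -0.96]) and Gli2 (-1.63 [-2.62, -0.78]) were lower, and the Gas1 difference fell short of 2-fold in 4 of 8 alternatives and turned direction in 2 of them.

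Gas1 was lower in these cells, where the targets were higher. At E16.5 its level was 348 CPM in condensate or papilla-like cells against 675 in other dermal-like cells (-0.96 [-1.04, -0.88], not called, though past 2-fold in 8 of 13 alternative settings), and at P0 it was 152 against 805 (-2.40 [-2.64, -2.18], called lower; background 9.43%), which was -0.60 and not past 2-fold at clustering resolution 2, 1 of 8 alternatives. The sub-clusters of the class were far apart. At E16.5, the sub-cluster of 200 cells led by Bmp3, Hes5 and Bmp4 held 124 CPM, while those of 156 and 81 cells held 583 and 459, within the range of 273 to 933 of the 10 other dermal-like sub-clusters. Ptch1 in the same 3 was 247, 253 and 204, above the 11.9 to 131 of the others. At P0, the 43 cells led by Serpine2, Gdf10 and Rspo1 held 44.0 CPM of Gas1, the level of endothelial-like cells, together with 482 of Ptch1, 157 of Gli1, 210 of Hhip and 162 of Smo. The other 97 papilla-like cells held 220 of Gas1, 278 of Ptch1, 105 of Gli1, 49.2 of Hhip and 69.2 of Smo, so Smo and Hhip were past 2-fold of other dermal-like cells (52.3 and 28.7) in the 43 cells alone. The 10 other dermal-like sub-clusters at P0 reached 136 CPM of Hhip, above the 49.2 of the 97 cells, and that highest sub-cluster had 19 cells and 20 UMIs. The 49.2 of the 97 cells was also short of 2-fold above the 29.8 of the class at E16.5. A sub-cluster of fewer than 50 cells is too small to stand as a class of its own here and is given as a description.

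**Figure D4:**
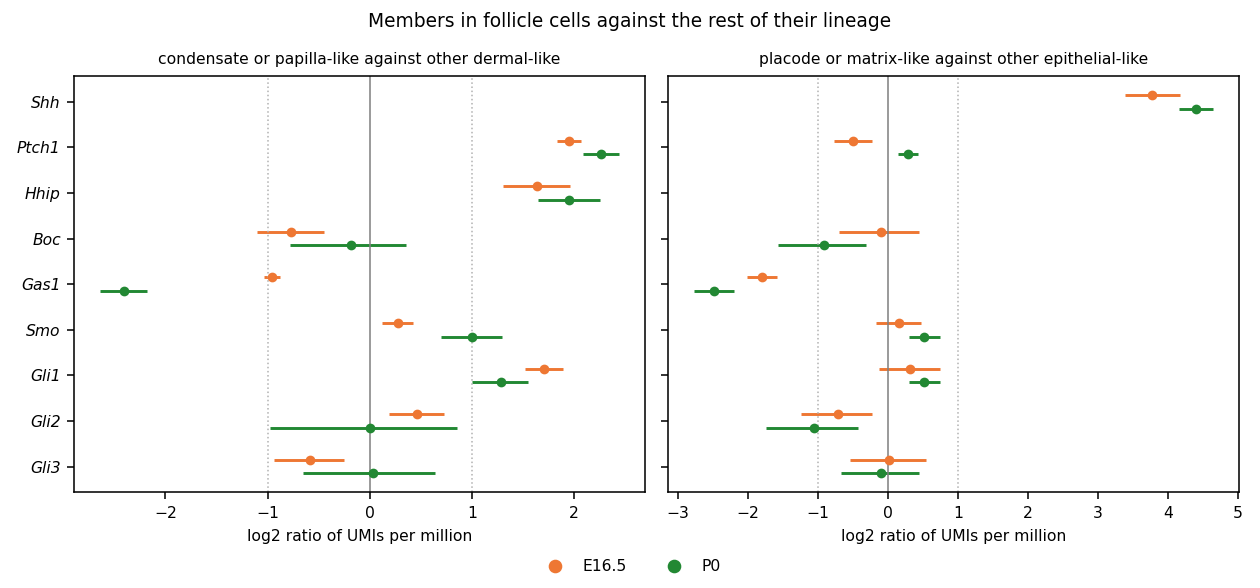
Log2 ratio of CPM for each member in condensate or papilla-like cells against other dermal-like cells (left) and in placode or matrix-like cells against other epithelial-like cells (right), at E16.5 and P0, with exact 95% intervals and dotted lines at 2-fold. Members under 50 UMIs in the pair are not drawn. Ptch1, Hhip and Gli1 lie right of the upper line on the left, Shh alone does so on the right, and Gas1 lies to the left of 0 in both panels.

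In placode or matrix-like cells, which held most of the Shh UMIs, the targets Ptch1 and Gli1 were not called against the rest of the epithelium. At P0 both ratios lay above 0 by their intervals but short of 2-fold. The rest of the epithelium here includes the sheath-like cells, which held 224 CPM of Ptch1 and 55.5 of Gli1 at E16.5. A comparison without them was not made. Hhip had too few UMIs there to be compared. Ptch1 was at 67.9 CPM against 95.9 in other epithelial-like cells at E16.5 (-0.50 [-0.77, -0.23]) and at 174 against 143 at P0 (0.28 [0.14, 0.43]). Gli1 was at 28.3 against 22.7 (0.32 [-0.13, 0.75]) and at 76.5 against 53.3 (0.52 [0.30, 0.74]). Apart from Shh, no member was called higher at either stage (1 of 8 each time, beside 2.2% and 3.36% of all genes higher and 7.68% and 11.3% in either direction). Gas1 was called lower at both, at 101 against 350 CPM at E16.5 (-1.79 [-2.01, -1.58]) and at 38.8 against 216 at P0 (-2.48 [-2.77, -2.20]), and Gli2 was called lower at P0, at 8.18 against 16.9 (-1.05 [-1.73, -0.43], short of 2-fold in 4 of 13 alternatives, the smallest -0.37); the backgrounds for lower calls were 5.49% and 7.91%. Between the stages, placode or matrix-like cells were higher at P0 for Shh (1.42 [1.19, 1.67]), Ptch1 (1.36 [1.07, 1.65]) and Gli1 (1.43 [0.99, 1.90]) and lower for Gas1 (-1.38 [-1.74, -1.03]) and Gli2 (-1.27 [-2.09, -0.48]), which is 5 of 8 members against a background of 15.8% (6.52% higher, 9.27% lower). Bmp2 and Msx2 marked the class at both stages while Dkk4 and Hoxc13 differed between them, and the part of a change in which cells the class holds was not tested. Gas1 fell short of 2-fold in 4 of 13 alternatives (the smallest -0.43), Gli2 in 1 of 9 (-0.84), Ptch1 in 1 of 13 (0.69) and Shh in 1 of 13 (0.98).

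Sheath-like cells at E16.5 stood out in a comparison added after the clusters were seen. Ptch1 was at 224 CPM against 75.3 in the epithelial-like cells that were neither sheath-like nor placode or matrix-like (1.57 [1.39, 1.76]), Gli1 at 55.5 against 17.4 (1.67 [1.29, 2.05]) and Shh at 43.8 against 1.19 (5.20 [4.31, 6.22]), which is 3 of 8 members beside 6.21% of all genes higher and 4.03% lower (10.2% together). At P0, 0 of 8 were called in either direction (background 8.87%, from 3.66% higher and 5.21% lower), with Gli1 at 0.80 [0.59, 1.01] and Ptch1 at 0.36 [0.23, 0.48]. Shh at P0 was at -0.47 [-0.94, -0.02] and past 2-fold lower in 5 of 12 alternative settings. The P0 cells it was set against include the inner root sheath-like sub-cluster (90 Shh UMIs, 76.5 CPM), a class not named at E16.5. The other 5 sub-clusters among them held 0 to 7.70 CPM and the 3 sheath-like sub-clusters 7.12 to 11.6, so the direction at P0 rests on the inner root sheath-like cells. One P0 epithelial-like sub-cluster of 103 cells with no sub-type name, with Sostdc1 among its leading genes, held 270 CPM of Ptch1 and 75.9 of Gli1, the highest of the 6 sub-clusters outside follicle sheath and matrix for both genes.

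**Figure D5:**
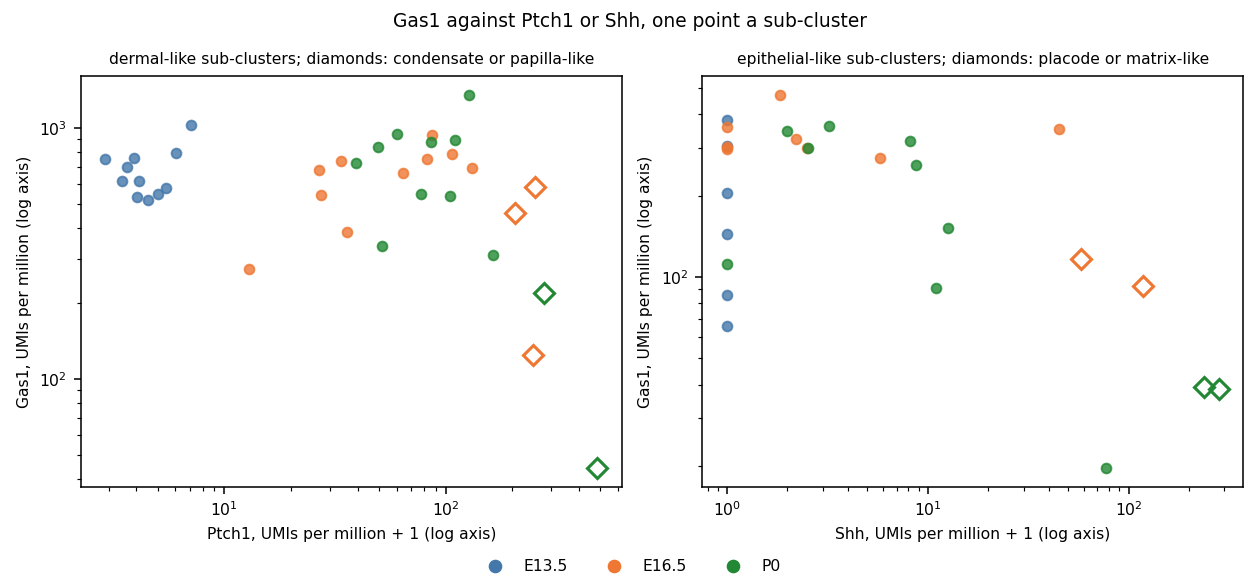
Gas1 level against Ptch1 in dermal-like sub-clusters (left) and against Shh in epithelial-like sub-clusters (right), in CPM on log axes (1 added on the horizontal axis), 1 point a sub-cluster, coloured by stage, with diamonds for condensate or papilla-like and placode or matrix-like sub-clusters. The P0 papilla-like sub-cluster with 482 CPM of Ptch1 has 44.0 of Gas1, and the 4 placode or matrix-like sub-clusters lie between 38.5 and 117 of Gas1.

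Members were also compared within single cells after thinning. Among dermal-like cells at E16.5, 103 of the 292 with a Gli1 UMI also had a Ptch1 UMI (35.3%), against 22.8% of those without Gli1. In P0 dermal-like cells the shares were 34.1% and 19.9%, and in epithelial-like cells they were 44.4% and 21.1% at E16.5 and 47.5% and 35.2% at P0. Inside the epithelial classes the intervals overlapped each time, at 57.1% [28.9, 82.3] and 47.3% [35.6, 59.3] in sheath-like and 36.4% [10.9, 69.2] and 22.3% [15.2, 30.8] in placode or matrix-like cells at E16.5, and at 42.6% [33.1, 52.5] and 39.6% [34.7, 44.7] in sheath-like and 49.0% [34.8, 63.4] and 32.8% [26.3, 39.9] in placode or matrix-like cells at P0. Within other dermal-like cells the shares were 28.0% [21.6, 35.1] with Gli1 and 17.6% [15.9, 19.3] without at E16.5, and 29.3% [24.5, 34.5] and 17.8% [16.1, 19.6] at P0, with intervals that did not overlap. Within condensate or papilla-like cells they were 47.3% [37.7, 57.0] with Gli1 and 54.4% [48.9, 59.9] without at E16.5, and 70.5% [54.8, 83.2] and 59.4% [48.9, 69.3] at P0, with overlapping intervals at both stages. The ligand and Gas1 were found apart: 6 of the 43 epithelial-like cells with an Shh UMI had Gas1 at E16.5 (14.0%) against 55.0% of those without Shh, and 17 of 179 (9.50%) against 40.5% at P0. Inside placode or matrix-like cells the Gas1 shares were 12.5% [3.51, 29.0] with Shh and 28.0% [19.5, 37.9] without at E16.5, and 9.66% [5.38, 15.7] and 12.9% [7.04, 21.0] at P0. Inside sheath-like cells 2 of 9 cells with Shh had Gas1 at E16.5 (22.2% [2.81, 60.0], against 57.0% [45.3, 68.1] without) and 1 of 11 at P0 (9.09% [0.23, 41.3], against 40.1% [35.7, 44.7]). The intervals overlapped in each of these 4 pairs. In P0 placode or matrix-like cells Ptch1 was found in 37.2% of cells with Shh and 34.7% of those without.

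Across 112 clusters of the 3 libraries, the genes whose log2 levels followed each member most closely were ranked among 13338 genes by Pearson r, as a description, since clusters of 1 library share its depth and free RNA. For Shh these were Ascl4 (0.93), Edar (0.81), Ano9 (0.78), Hoxc13 (0.78) and Sox21 (0.77), and Edar and Hoxc13 are markers by which placode and matrix clusters were named. The closest gene to Ptch1 was Gli1 (0.92), and Rpl23a-ps3 (0.80), Col7a1 (0.79) and Klf13 (0.79) were also among its closest 5. Those closest to Gli1 included Ptch1 (0.92), Rpl23a-ps3 (0.81), Col7a1 (0.81) and Cd44 (0.78). Rpl23a-ps3 is a ribosomal pseudogene whose reads cannot be told from its copies with certainty. Gas1 followed Gpx8 (0.77), Hmgn3 (0.76), Sdc2 (0.73), Lpar1 (0.73) and the co-receptor Boc (0.72). Ptch1 and Shh had an r of 0.37, and Shh and Gas1 of -0.42.

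The rest of the pathway was read from a list of 44 other genes, of which 42 were in the table. Dhh and Ihh, the other Hedgehog ligands, passed the minimum of 50 UMIs in no comparison. Between dermal-like and epithelial-like cells, 6 of 34 listed genes were higher and 1 lower at E13.5, 6 and 4 of 34 at E16.5 and 5 and 5 of 34 at P0. Beside the 22.5%, 31.1% and 33.7% of all genes called in either direction these counts are no more than the background, and the genes named next are single values. The list had medians of 0.28, 0.43 and 0.03 beside 0.04, 0.08 and -0.12 over all genes. Cdon, the paralogue of Boc, was called higher in the dermis at E13.5 (59.0 against 20.7 CPM) and P0 (23.3 against 7.39). The glypican Gpc6 was higher at every stage, at 62.4 against 21.0, 26.7 against 3.31 and 44.7 against 3.70, and Gpc3, a glypican that competes with Patched for ligand, was higher at E16.5 (446 against 105) and P0 (940 against 159). Scube2, a secreted protein that helps release the lipid-modified ligand, was higher there in both embryonic libraries (32.1 against 3.85 and 23.2 against 3.24). The ciliary protein Evc was higher at E13.5 and P0 (17.0 against 7.10 and 15.9 against 7.22) and the ubiquitin ligase Mgrn1, which acts on Smoothened, at E16.5 and P0 (32.7 against 11.9 and 25.2 against 11.7).

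Lower in dermal-like cells were Mycn, listed as a target (16.0 against 42.3, 4.25 against 11.3 and 6.72 against 95.8 at the 3 stages) and Ccnd2 (442 against 1110 and 185 against 588 at E16.5 and P0). Ccnd1, a cyclin listed as a target, was higher in the dermis before birth (176 against 55.6 and 193 against 79.3) and lower at P0 (107 against 255).

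In the follicle classes, Cdon went the way of Gas1, at 13.6 against 46.4 and 6.61 against 24.6 CPM in condensate or papilla-like cells, and 12.8 against 28.9 and 2.85 against 8.29 in placode or matrix-like cells, and was called lower in all 4. Gpc1 was called higher in condensate or papilla-like cells at E16.5 (26.2 against 11.5) and P0 (34.9 against 7.60) and in placode or matrix-like cells at P0 (70.8 against 18.5). Bcl2, a survival gene listed as a target, was at 179 against 89.0 in condensate or papilla-like cells at E16.5 and at 675 against 72.1 at P0, and at 143 against 47.3 in placode or matrix-like cells at E16.5. The cyclin Ccnd1 (344 against 170) and Mycn (7.57 against 3.74) were called higher in condensate or papilla-like cells at E16.5, while Gpc6 (10.6 against 29.2), Gpc4 (23.0 against 57.3) and Disp1 (5.30 against 10.8) were called lower there. At P0, Gpc3 (219 against 995) and Gpc6 (8.499 against 47.5) were called lower in condensate or papilla-like cells. In placode or matrix-like cells Gpc4 was called higher at E16.5 (46.0 against 19.96), and at P0 Gpc3 (344 against 123) and the ciliary protein Efcab7 (6.76 against 2.95) were called higher and Gpc6 (1.07 against 4.22) lower.

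Some genes that prepare or release the ligand stood high in placode or matrix-like cells. In placode or matrix-like cells Scube1 was at 21.4 against 1.62 CPM at E16.5 (3.72 [2.90, 4.59]) and at 16.7 against 0.211 at P0 (6.31 [4.67, 8.64]). Scube3 was at 24.2 against 2.39 (3.34 [2.73, 3.98]) and Disp1, the membrane protein that exports the ligand, at 11.0 against 5.06 (1.12 [0.47, 1.75]) at P0. Of 6 listed release genes, only Scube1, Scube3 and Disp1 had enough UMIs at P0, and 3 of 3 were called higher, beside 3.36% of all genes. The minimum holds for the pair, so a gene as rare in other epithelial-like cells as Scube1 passes it only through the placode or matrix-like cells. The count is therefore partly set by the filter and is not read as a result for release genes. At E16.5 the count was 1 of 3 (Scube1), beside 2.2%, with Scube3 at 0.99 [-0.03, 1.92] and Disp1 at 0.67 [0.05, 1.25] not called. In sheath-like cells at E16.5, which also held Shh, Disp1 had enough UMIs and was not called (0.29 [-0.48, 0.99]), and Scube2 stood higher in the dermis, as given above. In all, 3 of 29 listed genes were higher and 1 lower in placode or matrix-like cells at E16.5 (backgrounds of 2.2% and 5.49%), and 6 of 31 higher and 2 lower at P0 (3.36% and 7.91%). In condensate or papilla-like cells 4 of 32 were higher and 4 lower at E16.5 (backgrounds of 7.1% and 8.22%), and 8 of 28 higher and 3 lower at P0 (17.0% and 9.43%). Beside Gpc1 and Bcl2, the 8 at P0 were the negative regulator Sufu (24.6 against 10.6 CPM), the ciliary proteins Kif7 (1.07 [-0.06, 2.05]) and Iqce (1.03 [-0.10, 2.00]), and Btrc (26.4 against 11.0), Cul3 (1.01 [0.49, 1.495]) and Spop (1.03 [0.83, 1.22]), parts of the ubiquitin ligases that act on Gli proteins, in a comparison in which the median log2 ratio of all genes was itself 0.28.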

How the data were processed

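Single-cell RNA-seq of mouse back skin was made by droplet capture (10x 3′ chemistry), 1 library for each stage. Alignment to mm10 was done by the authors with Cell Ranger 2.2.0, and they deposited 1 table of natural log values, ln(1 + UMIs per 10000) per cell, from cells with at least 1750 genes. More cells are in the table than the study states, and its gene filter leaves all of them. UMIs were recovered from these values (all 48197283 values above 0 came within 0.001 of a whole number), and 0 columns were left unused.

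Each library was clustered with scanpy 1.11.5 and leidenalg 0.10.2 (2000 variable genes without 54 Hedgehog genes, 30 components, resolution 1) and dermal and epithelial cells were clustered again. A sub-cluster whose markers of another lineage reached 0.6 of its own score, or whose 10 leading genes held more markers of another lineage, was left unnamed, rules set after the clusters were seen. This left 166 of 2092, 680 of 3290 and 393 of 2667 dermal candidates and 157 of 517, 77 of 954 and 297 of 1586 epithelial candidates unnamed at E13.5, E16.5 and P0. Doublets were kept and an alternative removed the 84 (E16.5) and 106 (P0) that Scrublet called. It called 0 at E13.5, where it did not work.

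UMIs were summed per class and stage, and ratios taken with exact intervals (scipy 1.17.1). Contrasts were checked on simulated counts. For shares, cells were thinned to 3500 UMIs, leaving out 1 E16.5 cell. Members and lists were chosen with earlier results of these data known. Named pathway genes were those past 2-fold between the dermal-like and the epithelial-like class in 2 or more stages, or between follicle cells and the rest of their lineage, with the 5 closest genes to Shh, Ptch1, Gli1 and Gas1. Some genes that met this rule are not reported here, and counts over the pathway list leave them out.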

Additional observations from a re-analysis of the deposited data

Results flagged for a closer look

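The difference of P0 from E16.5 in Shh ran opposite ways in epithelial classes, at log2 values of 1.45 in all epithelial-like cells and 1.42 in placode or matrix-like cells but -2.11 in follicle sheath-like cells. The difference between these effects was not tested.

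Ccnd1 also changed direction. From E16.5 to P0 its log2 difference was 1.69 in epithelial-like, 2.63 in placode or matrix-like and -2.44 in condensate or papilla-like cells, and between dermal-like and epithelial-like cells it was 1.66 and 1.28 at the embryonic stages and -1.25 after birth. Neither difference was tested.

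Some cells outside the comparisons held more of a member than either compartment, by intervals that did not overlap, in CPM (UMIs of a gene per 1000000 UMIs of the class). At E13.5, cartilage-like cells held 18.75 of Ptch1, 42.87 of Boc and 13.4 of Gli1. A cluster of 84 cells with no lineage name, led by Fabp7, Sox2 and Hes5, held 26.88 of Ptch1 and 57.59 of Gli3. Tendon-like cells held 40.49 of Boc, 692.3 of Gas1 and 42.17 of Gli3. Among dermal candidates left unnamed, 159 cells at E13.5 held 755.2 of Gas1, 335 cells at E16.5 held 45.5 of Boc and 938.2 of Gas1, 52 cells at E16.5 held 885 of Gas1 and 233 cells at E16.5 held 42.9 of Gli3. At P0, 52 such cells held 205.1 of Ptch1, 92.63 of Smo and 102.5 of Gli1, and 177 held 859.5 of Gas1, 77.21 of Gli1 and 26.3 of Gli2. The 52 cells had Sox18 among their leading genes. Condensate or papilla-like cells at P0 held more Ptch1 than these 52 cells, as given above. Their Smo and Gli1 levels, also given above, lay within the intervals of the 52 cells, [61.55, 133.9] and [69.68, 145.6]. The condensate or papilla-like class at P0 went from 140 to 192 cells when clusters were kept in their lineage whatever their leading genes.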

How the results depend on the processing

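Across the alternatives, member ratios past 2-fold (49 results, 585 values) stayed within the main interval in 487, moved in 96 and reversed in 2, and 36 fell short of 2-fold. Ratios not past it (81 results, 983 values) moved in 137 and passed 2-fold in 58. Shh in placode or matrix-like against other epithelial-like cells, and Ptch1 and Gli1 in condensate or papilla-like against other dermal-like cells, stayed past 2-fold in every alternative that gave a value. The reversed values are both Gas1 in condensate or papilla-like cells, P0 against E16.5 (-1.20), which was 0.98 at resolution 2 and 0.29 when the class needed a mean marker difference of at least 3, an alternative chosen after seeing the data. The cause was not tested.

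Counts of members past 2-fold moved as follows. Between dermal-like and epithelial-like cells, 5 became 3 at E13.5 with thinned cells, 2 became 4 at E16.5 with cells weighted equally, with thinned cells and with clusters kept in their lineage whatever their leading genes, and 3 became 5 at P0 with at least 2500 genes per cell. For condensate or papilla-like cells, 3 became 5 at E16.5 at resolutions 0.5 and 2, with 3000 variable genes, with Hedgehog genes allowed in clustering and with the stricter marker difference, and 5 became 3 at P0 at resolution 2. From E16.5 to P0, 2 became 1 in dermal-like cells with thinned cells, and 5 became 3 in placode or matrix-like cells at resolutions 0.5 and 2, without cell cycle genes and with at least 2500 genes per cell. For the pathway list in condensate or papilla-like cells, 8 became 5 at E16.5 with thinned cells, with clusters left unnamed from 0.25 of another list's score and with clusters kept in their lineage whatever their leading genes, and 11 became 7 at P0 at resolution 2 and with clusters kept in their lineage. In placode or matrix-like cells, 4 became 8 at E16.5 at resolution 2, and 8 became 2 at P0 with at least 2500 genes and 4 with thinned cells, while in dermal-like cells from E16.5 to P0, 6 became 3 with cells weighted equally. In sheath-like cells at P0, 0 members became 1 at resolutions 0.5 and 2, with 3000 variable genes and without cell cycle genes, and 2 with Hedgehog genes allowed and with cells weighted equally, and 6 pathway genes became 3 without cell cycle genes, with markers judged against the median and with thinned cells. From E16.5 to P0 in sheath-like cells, 3 pathway genes became 5 at resolution 2 and with 3000 variable genes and 6 with Hedgehog genes allowed, and 2 members became 0 with thinned cells. Thinning leaves fewer UMIs, and genes under 50 are no longer called.

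Papilla-like cells at P0 had no value in 5 alternatives (resolution 0.5, Hedgehog genes allowed, cell cycle genes left out, 2500 genes, markers judged against the median), which left fewer than 50 such cells, and sheath-like cells at P0 had none with at least 2500 genes per cell. No paired analysis was possible because each stage was 1 library. At these depths, levels resting on a few UMIs, such as epithelial Hhip at E13.5 and E16.5 and dermal Shh, are at or near background. At P0 epithelial Hhip (41 UMIs) stood at 2.41 [1.73, 3.26] CPM beside 0.337 [0.009, 1.88] in endothelial-like cells. The part of free RNA in it was not tested.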
